A study of Rattus norvegicus with 13 samples.

Results

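Heat shock proteins and the DnaJ proteins that work with them were followed in the hypothalamus of rats raised on chow or on a high-fructose diet. Members were the genes of the expression table whose symbol began with Hsp followed by a letter from a to e, by h or by a digit, or with Dnaja, Dnajb or Dnajc, taking 1 row per symbol and keeping those that averaged 0.5 FPKM or more in the 13 rats. Of 70 such symbols 63 were members, among 17366 rows in the table and 11837 at or above the same limit. FPKM counts sequenced fragments relative to transcript length and library size, so that levels of different genes can be set side by side. Whole hypothalamus of 7 rats on standard chow with 0.30% fructose and of 6 rats on a chow with 55% fructose was sequenced. Both groups were put on their diet at postnatal day 25 in pair housing, were fasted overnight from day 79 and received saline or glucose (2 g per kg) into the peritoneum 1 h before death on day 80. Saline went to 29 rats of the cohort and glucose to 31, and the sources used here do not say which injection, sex, strain or cage each sequenced rat had. Each library is labelled as a rat of its own, and whether cage mates are among them is unknown, so that p-values measure the spread between these libraries. The study asked how peri-adolescent fructose feeding bears on the hypothalamic transcriptome.

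Heat shock proteins are molecular chaperones, which bind unfolded stretches of other proteins and release them in cycles driven by ATP. Hsp70 proteins do this with partners of the DnaJ family, whose J domain makes Hsp70 hydrolyse ATP and hands clients to it, and with nucleotide exchange factors of the Hsp110 family, which let Hsp70 release ADP and the client. Hsp90 proteins take over clients such as kinases and steroid receptors, small heat shock proteins hold unfolded proteins without ATP, and the Hsp60 and Hsp10 chaperonin folds proteins inside mitochondria. Under proteotoxic stress the factor HSF1 drives the cytosolic genes through heat shock elements, and the unfolded protein response drives those of the endoplasmic reticulum. Neurons depend on constitutive members, among them the J proteins of synaptic vesicles and clathrin coats.

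Promoters are shown for genes of both programmes, since the results below follow Hsph1 as the cytosolic gene and Hspa5 as the gene of the endoplasmic reticulum. RefSeq promoters of the build GRCr8, from 250 bases before to 50 bases after the gene start, matched 51 of the 63 members with 1 promoter each, that of Hspa1a standing for the joined row of Hspa1a and Hspa1b. Capitals mark 1 heat shock element of 3 units in Hsph1 and 2 that overlap in Hspe1. The units of this element are GAA, TTC and GAA, with 2 bases of any kind between units. In Hspa5 and Hsp90b1 the capitals mark an endoplasmic reticulum stress element, CCAAT and CCACG with 9 bases of any kind between them. Both strands were searched, so that a capital run may be the reverse complement of these letters.

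Hsph1 (chr12:10427118-10427417, plus strand): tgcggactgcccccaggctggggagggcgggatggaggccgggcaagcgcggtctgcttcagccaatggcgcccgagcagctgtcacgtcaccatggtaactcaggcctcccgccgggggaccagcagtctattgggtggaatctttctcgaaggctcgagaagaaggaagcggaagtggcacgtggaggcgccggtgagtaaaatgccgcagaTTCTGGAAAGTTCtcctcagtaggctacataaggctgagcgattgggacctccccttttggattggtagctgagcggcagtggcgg
Hspe1 (chr9:64084077-64084376, plus strand): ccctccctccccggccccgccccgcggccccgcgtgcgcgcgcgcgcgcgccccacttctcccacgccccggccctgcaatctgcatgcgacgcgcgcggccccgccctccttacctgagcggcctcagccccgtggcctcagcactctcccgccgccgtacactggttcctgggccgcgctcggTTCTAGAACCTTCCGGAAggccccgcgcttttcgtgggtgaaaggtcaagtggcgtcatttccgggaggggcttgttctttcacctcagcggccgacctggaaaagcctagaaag
Hspa5 (chr3:38452766-38453065, plus strand): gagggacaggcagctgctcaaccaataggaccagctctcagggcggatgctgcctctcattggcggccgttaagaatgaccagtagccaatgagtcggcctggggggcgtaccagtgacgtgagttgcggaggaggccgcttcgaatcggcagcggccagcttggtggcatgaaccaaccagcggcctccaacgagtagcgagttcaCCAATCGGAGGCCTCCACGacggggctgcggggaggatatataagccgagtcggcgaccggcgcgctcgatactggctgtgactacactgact
Hsp90b1 (chr7:23012244-23012543, minus strand): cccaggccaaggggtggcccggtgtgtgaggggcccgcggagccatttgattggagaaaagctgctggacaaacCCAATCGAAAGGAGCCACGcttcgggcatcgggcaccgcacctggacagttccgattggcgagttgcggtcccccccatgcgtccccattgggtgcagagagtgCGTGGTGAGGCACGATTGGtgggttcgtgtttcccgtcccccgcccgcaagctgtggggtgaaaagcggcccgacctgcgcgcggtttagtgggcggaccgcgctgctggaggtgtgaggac

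The 3-unit element was found in 5 of the 51 member promoters (9.80%), those of Hsph1, Hspa8, Dnaja1, Hspd1 and Hspe1, and in 202 of 27457 RefSeq promoters of the same length (0.736%). In Hsph1 it began 36 bases before the gene start. Hspe1 and Hspd1 lie head to head, and the 2 overlapping matches of Hspe1, which began 65 and 60 bases before its start, are the same bases as the 2 of Hspd1. The stress element of the endoplasmic reticulum was found in 3 member promoters (5.88%), those of Hspa5, Hsp90b1 (2 matches) and Dnajc3, and in 21 of all promoters (0.0765%). A pair of adjoining units, GAANNTTC or TTCNNGAA, which the longer element contains, was found in 15 of the 51 (29.4%) against 15.4% of all promoters. Of the 7 members described below as lower on fructose, 6 had a promoter here, and Hsph1 alone of these held the 3-unit element. These matches are letters in a window and were not tested for binding. The window of Hspa1a held none of the elements searched. Whether each window covers the promoter in use was not tested, so that a missing match does not show that a gene lacks the element.

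The members ranged from 0.531 to 1131 FPKM on average. Hsp90ab1, the constitutive cytosolic Hsp90, was the highest at 1131 FPKM over the 13 rats, followed by its inducible partner Hsp90aa1 at 653 FPKM. Hspa5, the Hsp70 of the endoplasmic reticulum known as BiP, stood at 340.0 FPKM, Dnaja1, a cytosolic J protein, at 264 FPKM and Hsp90b1, the Hsp90 of the endoplasmic reticulum, at 251 FPKM. The inducible Hsp70 pair Hspa1a and Hspa1b, which the table joins in 1 row, stood at 0.860 FPKM. Hspa8, the constitutive cytosolic Hsp70, was listed at 9.77 FPKM. Hsp70 genes have near-identical copies in the genome, and how reads were split between copies is uncertain for Hspa8, Hspa1a and Hspa1b, and likewise for Hsp90ab1, Hspd1 and Hspe1. At the limit of 0.5 FPKM, Hspb9 (0.531 FPKM) and Dnajc22 (0.622 FPKM) were just inside, and Hspb3 and Hspb7 (both 0.445 FPKM) and Hspb2 (0.398 FPKM) just outside. Dnajc5b, Dnajb7 and Dnajc5g were lower still, and Dnajb8 was listed at 0 in all 13 rats.

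**Figure D1:**
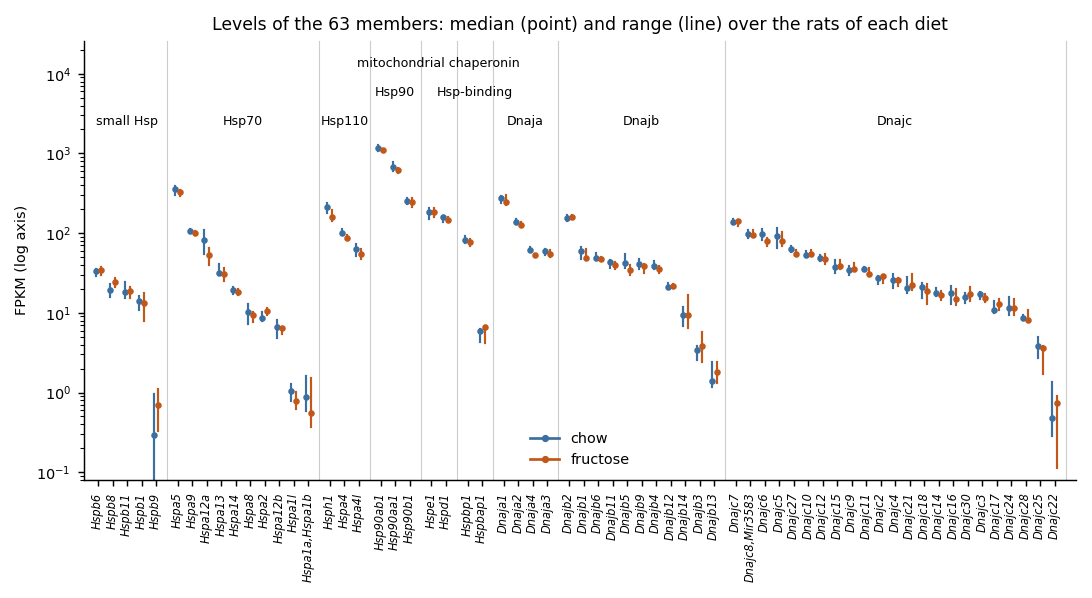
FPKM on a log axis of the 63 members, grouped by class, with the median (point) and the lowest to highest rat (line) on chow (blue) and fructose (orange), values of 0 being drawn at the lower edge. The 3 Hsp90 genes stand between 251 and 1131 FPKM on average, all J proteins but Dnaja1 below 251 FPKM, and in most members the lines of both diets overlap.

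Most members differed from rat to rat by little, which was not set against all genes tested. The highest rat stood 1.43 times above the lowest in the median member, over the 62 members above 0 in every rat. This ratio was 2.79 in Hspa12a, 4.37 in the joined row of Hspa1a and Hspa1b and 11.9 in Dnajc22. The SD of log2(FPKM + 0.5) over the 13 rats was smallest in Dnajc7 (0.0745), a co-chaperone that binds both Hsp70 and Hsp90, and largest in Hspb9 (0.554), Hspa12a (0.454) and Dnajc22 (0.451). The summed level of all members was 5156 to 5830 FPKM on chow and 4964 to 5405 FPKM on fructose, so that the diets overlapped.

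On fructose 7 of the 63 members fell and 0 rose (limma, Benjamini-Hochberg adjusted p under 0.05 over all 11837 genes tested). The 7 were the Hsp110 genes Hsph1 and Hspa4, the Hsp70 relative Hspa12a, and the J proteins Dnaja4, Dnajb5, Dnajc6 and Dnajc27. This is 11.1% of the members, where 2.27% of all genes tested fell, 1.66% rose and 3.94% did either. All 7 were abundant, and among genes averaging 30 FPKM or more, a limit chosen after the data were seen, 7 of 35 members (20.0%) and 3.74% of all 3718 genes fell. Since this limit kept all 7, the step from 11.1% to 20.0% follows from its choice. At an unadjusted p under 0.05, 13 members were lower and 3 higher, against 10.6% and 8.59% of all genes. The median log2 fold change was -0.07 over the members and 0.00 over all genes tested, and 44 of 63 members (69.8%) had a negative value, against 49.7% of all genes. Fold changes are on the scale of log2(FPKM + 0.5), fructose minus chow, and in a whole tissue fewer cells of a type and less RNA per cell cannot be told apart. Below, ± gives the limma SE after a log2 fold change and the SD over the rats of a diet after a mean in FPKM.

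**Figure D2:**
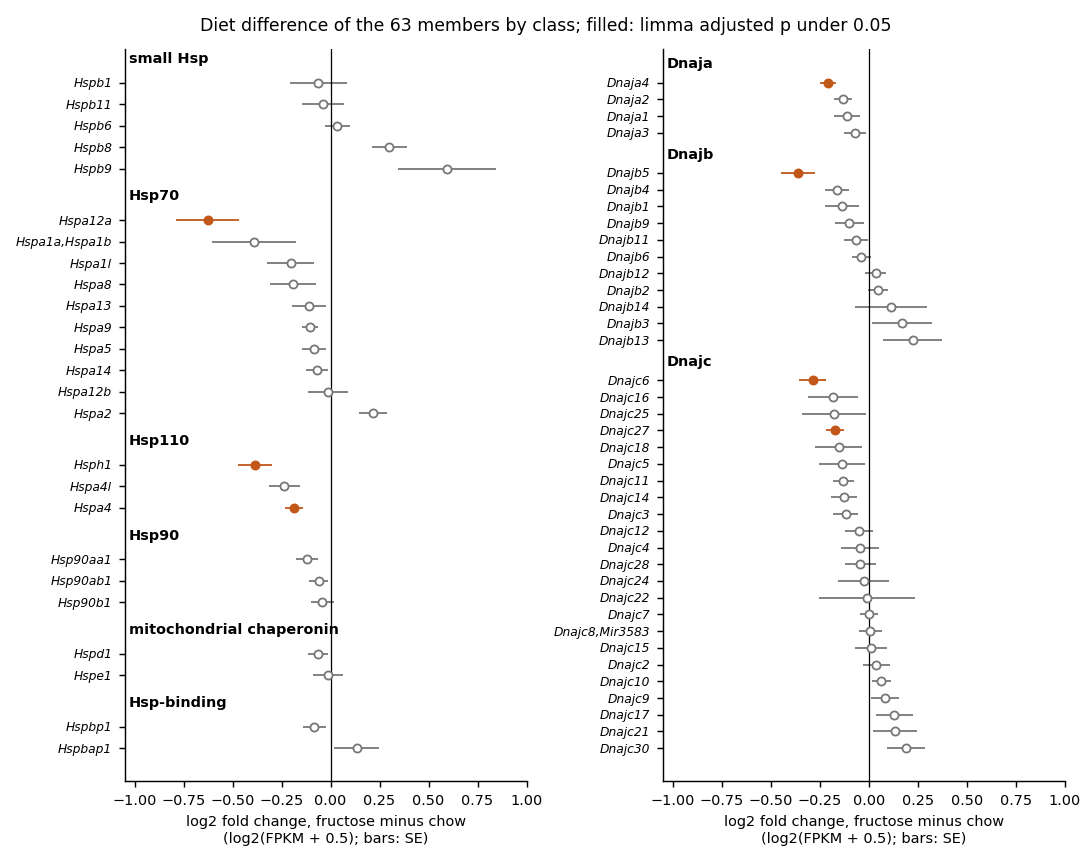
Log2 fold change (fructose minus chow, on log2(FPKM + 0.5)) of each member with its SE, grouped by class, filled where the limma adjusted p was under 0.05. All 3 Hsp110 and all 4 Dnaja genes lie left of 0, while 3 of the 5 genes classed by symbol as small heat shock proteins lie right of it.

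The Hsp110 class held 2 of the 7. Hsph1, also called Hsp105, is a nucleotide exchange factor for Hsp70 that is abundant in brain. It lay between 179.9 and 239 FPKM on chow, with a median of 215, and between 140.0 and 196 FPKM on fructose, with a median of 159. The diets overlapped, with 5 of 6 fructose rats below every chow rat. Chow rats averaged 214 FPKM (SD 23.5, n = 7) against 164 FPKM in fructose rats (SD 20.7, n = 6), and the difference was -0.39 on the log2 scale (SE 0.09, limma adjusted p = 0.0297). Hspa4, its relative also called Apg-2, lay between 94.7 and 111 FPKM (median 99.9) on chow and between 82.6 and 95.7 FPKM (median 87.3) on fructose, and again 5 of 6 fructose rats were below every chow rat. It fell by 0.19 on the log2 scale (SE 0.05, limma adjusted p = 0.0394). Hspa4l, the third exchange factor of this class, lay between 52.3 and 73.0 FPKM on chow and 47.9 and 62.6 on fructose. Its log2 fold change was -0.23 ± 0.08, which did not pass (limma adjusted p = 0.119, 95% interval -0.41 to -0.06). Without chow replicate 1 its limma adjusted p was 0.0312, and it passed in no other fit with 1 rat left out. The summed level of the class was 331 to 416 FPKM on chow and 275 to 347 FPKM on fructose.

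Among 10 Hsp70 genes 1 fell and 9 did not pass. Hspa12a, a distant Hsp70 relative expressed in brain, fell the furthest of all members. It lay between 54.9 and 109.5 FPKM (median 81.0) on chow and between 39.3 and 65.9 FPKM (median 52.5) on fructose. The lowest chow rat lay within the fructose range, and the other 6 chow rats lay above every fructose rat. The log2 fold change was -0.63 ± 0.16 (limma adjusted p = 0.0439). Hspa5 lay between 305 and 385 FPKM on chow and 295 and 349 FPKM on fructose, with a log2 fold change of -0.08 ± 0.06 (limma adjusted p = 0.511, 95% interval -0.21 to 0.05). Hspa9, the Hsp70 of mitochondria also called mortalin, stood at 107 ± 3.90 and 99.5 ± 4.26 FPKM (-0.10 ± 0.04, limma adjusted p = 0.168). Hspa2, best known from the testis, was the Hsp70 gene with a positive value, 9.02 ± 0.855 FPKM on chow and 10.6 ± 0.723 FPKM on fructose (0.22 ± 0.07, limma adjusted p = 0.101). Hspa8 had a log2 fold change of -0.19 ± 0.12 and the joined row of Hspa1a and Hspa1b of -0.39 ± 0.21, and neither passed.

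None of the 3 Hsp90 genes passed, and all had negative values. Hsp90ab1 lay between 1067 and 1273 FPKM on chow and 1031 and 1143 FPKM on fructose, so that the diets overlapped (-0.06 ± 0.05, limma adjusted p = 0.561). Hsp90aa1 lay between 610.2 and 772 FPKM on chow and 576 and 666 FPKM on fructose (-0.12 ± 0.05, limma adjusted p = 0.243). Its 95% interval ran from -0.24 to -0.0042, and 5 of 7 chow rats lay above every fructose rat. Hsp90b1 stood at -0.04 ± 0.06. The mitochondrial chaperonin genes, whose heat shock elements are printed above, had small values as well. Hspd1, which encodes Hsp60, stood at -0.07 ± 0.05 and Hspe1, which encodes its lid Hsp10, at -0.01 ± 0.08, with Hspe1 between 151 and 209 FPKM on chow and 160.0 and 206 FPKM on fructose.

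Of 38 J proteins 4 fell and 34 did not pass. In the Dnaja class, whose members resemble bacterial DnaJ most closely, all 4 had negative values and Dnaja4 fell. Dnaja4 lay between 58.9 and 66.5 FPKM (median 61.8) on chow and between 53.4 and 54.2 FPKM (median 53.9) on fructose. It was the one member in which every fructose rat lay below every chow rat, where 0.727% of all genes tested did so and 0.879% had every fructose rat above. Chow rats averaged 62.4 FPKM (SD 3.22, n = 7) against 53.8 FPKM in fructose rats (SD 0.294, n = 6), and the difference was -0.21 on the log2 scale (SE 0.04, limma adjusted p = 0.0193). The exact two-sided permutation p of 0.000583 is the smallest that 1716 splits of the rats can give. Dnaja1, the most abundant J protein, lay between 241 and 296 FPKM on chow and 226 and 298 FPKM on fructose, and did not pass (-0.11 ± 0.06, limma adjusted p = 0.377).

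In the Dnajb class 1 of 11 fell. Dnajb5, a relative of the heat-inducible Dnajb1, lay between 36.8 and 54.1 FPKM (median 42.4) on chow and between 29.8 and 39.6 FPKM (median 34.8) on fructose. One fructose rat reached into the chow range. Its log2 fold change was -0.36 ± 0.09 (limma adjusted p = 0.0361). Dnajb1, the main partner of inducible Hsp70, stood at -0.14 ± 0.09, and its diets overlapped (47.0 to 66.9 FPKM on chow and 47.1 to 63.2 FPKM on fructose). Dnajb2, a J protein of neurons and the highest of the class, lay between 144 and 171 FPKM on chow and 149 and 171 FPKM on fructose (0.05 ± 0.05, 95% interval -0.06 to 0.15). Dnajb14, a J protein of the endoplasmic reticulum membrane, had the largest spread of its class and a value of 0.11 ± 0.18.

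In the Dnajc class, which shares with the others only the J domain, 2 of 23 fell. Dnajc6 encodes auxilin, the neuronal J protein that brings Hsc70 to clathrin coats and removes them from endocytic vesicles. It lay between 81.7 and 112 FPKM (median 96.8) on chow and between 69.8 and 85.8 FPKM (median 80.5) on fructose, with 6 of 7 chow rats above every fructose rat. It fell by 0.29 on the log2 scale (SE 0.07, limma adjusted p = 0.0389). Dnajc27, a J protein fused to a small GTPase of the Rab type, lay between 57.8 and 68.3 FPKM (median 62.8) on chow and between 54.4 and 60.8 FPKM (median 55.1) on fructose. Again 6 of 7 chow rats lay above every fructose rat (-0.17 ± 0.04, limma adjusted p = 0.0462). Dnajc5, the cysteine string protein of synaptic vesicles, stood at 91.5 ± 15.6 and 82.8 ± 12.6 FPKM and did not pass (-0.14 ± 0.12). Dnajc7, the highest of the class, lay between 128 and 149 FPKM on chow and 124 and 144 FPKM on fructose (0.00 ± 0.05, 95% interval -0.10 to 0.10). Dnajc22, the lowest, had a value of -0.01 ± 0.25 with an interval from -0.53 to 0.51.

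**Figure D3:**
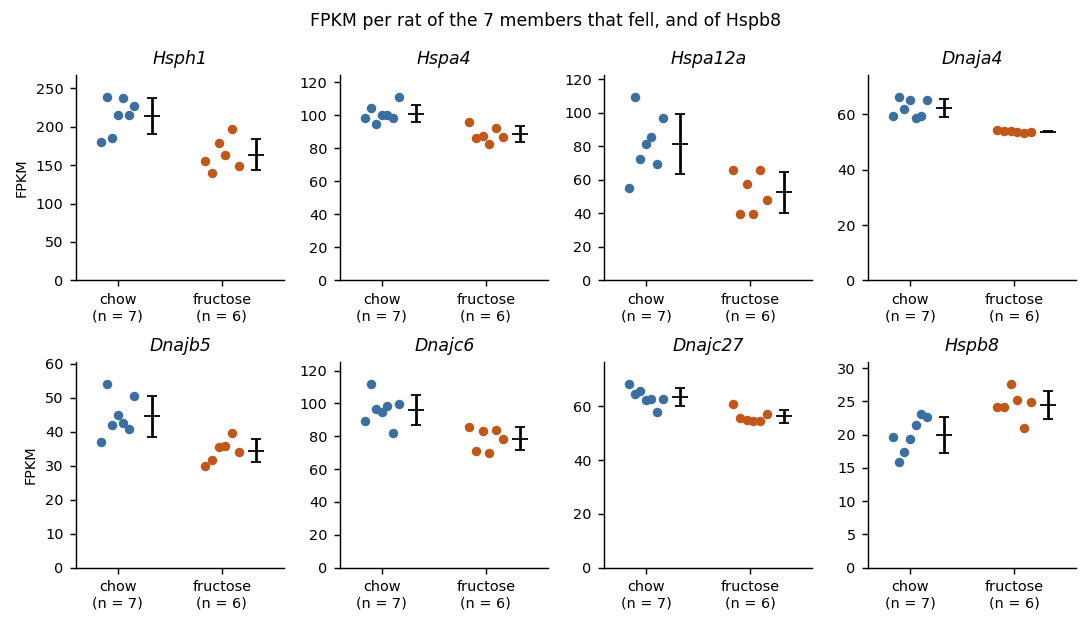
FPKM of each rat (points) with the mean and SD (bars) for the 7 members that fell and for Hspb8, chow in blue and fructose in orange, each axis starting at 0. In Dnaja4 the 6 fructose rats lie between 53.4 and 54.2 FPKM below all 7 chow rats, and in the other 6 members that fell the diets overlap.

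None of the 5 genes classed as small heat shock proteins by symbol alone (Hspb and a number) passed, and 3 of them had positive values. Hspb8, which works with Bag3 in clearing misfolded proteins, lay between 15.8 and 23.1 FPKM (median 19.6) on chow and between 21.0 and 27.6 FPKM (median 24.5) on fructose. Of the fructose rats 5 lay above every chow rat. Its log2 fold change was 0.30 ± 0.09, and the limma adjusted p was 0.0698 (exact permutation p = 0.00816 unadjusted). Without chow replicate 6 the limma adjusted p was 0.0479 and without fructose replicate 5 it was 0.0393. In no other fit with 1 rat left out did Hspb8 pass. Bag3 itself stood at 19.2 ± 1.97 FPKM on chow and 21.6 ± 3.07 FPKM on fructose (0.16 ± 0.09, limma adjusted p = 0.354). Hspb1, which encodes Hsp27, stood at 13.5 ± 2.04 and 13.1 ± 3.16 FPKM (-0.06 ± 0.15), and Hspb6, the highest of the class, at 32.8 ± 2.16 and 33.7 ± 3.05 FPKM (0.04 ± 0.06). Hspb9, near the limit of 0.5 FPKM and listed at 0 in part of the chow rats, had a value of 0.60 ± 0.25 (limma adjusted p = 0.206). Among genes named for binding heat shock proteins, Hspbp1, an exchange factor of Hsp70, stood at -0.08 ± 0.06 and Hspbap1 at 0.13 ± 0.11.

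The calls depended on single rats. Dnaja4 was called whichever of the 13 rats was left out (limma adjusted p from 0.00956 to 0.0495). It was the only member called without chow replicate 2, 4, 5 or 7 or without fructose replicate 2, 4 or 6, where the other 6 lost their calls. Their highest adjusted p over the fits was 0.0754 for Hsph1, 0.0806 for Dnajb5, 0.0919 for Dnajc6, 0.0953 for Hspa4, and 0.108 for both Hspa12a and Dnajc27. Hspa12a, Dnajc6 and Dnajc27 were lost also without chow replicate 3, Hspa12a, Hspa4 and Dnajc27 without fructose replicate 3, Dnajb5 without fructose replicate 1 and Dnajc27 without fructose replicate 5. The fold changes moved less, Hsph1 between -0.44 and -0.34 and Hspa12a between -0.71 and -0.55. In 13 of 13 fits each of the 7 had a negative value. The number of all genes that fell ranged from 21, without fructose replicate 4, to 566, without chow replicate 1, in the same fits. With the exact permutation test per gene 0 members passed after adjustment, with 13 lower and 3 higher at an unadjusted p under 0.05. The adjusted p of the 7 in this test lay between 0.0663 and 0.124. It called 0 of all 11837 genes after adjustment, so that its 0 is not particular to the members.

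**Figure D4:**
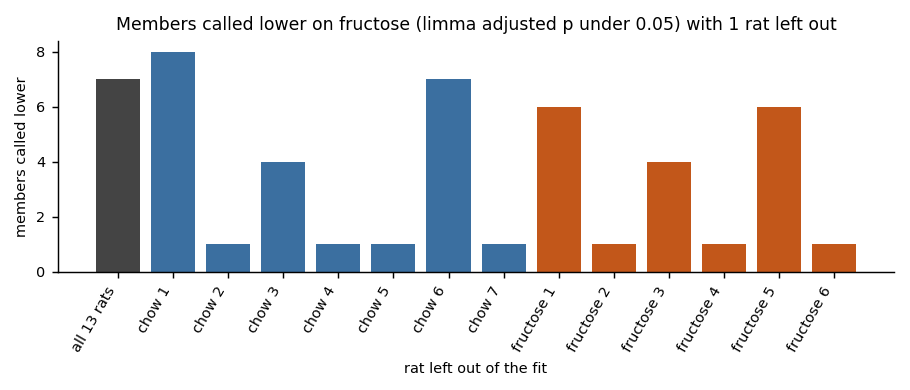
Number of the 63 members called lower on fructose (limma adjusted p under 0.05) with all 13 rats (grey) and with each chow (blue) or fructose (orange) rat left out. The count is 7 with all rats, 8 without chow replicate 1 and 1 in 7 of the 13 fits.

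Genes of other brain regions and cell types moved with diet in the same libraries. All 8 tested genes of a thalamus list had negative values and 3 fell, Zic1, Prkcd and Kcnc2. Their summed level ranged from 299 to 880 FPKM on chow, with a median of 581, and from 159.6 to 482 FPKM on fructose, with a median of 274. In the chow rats with the highest and lowest Hspa12a, replicates 2 (109.5 FPKM) and 1 (54.9 FPKM), the thalamus sum was 879.6 and 299 FPKM. In the fructose rats with the lowest Hspa12a, replicates 2 (39.3 FPKM) and 4 (39.5 FPKM), it was 159.6 and 199 FPKM. Hsph1, Dnaja4, Dnajb5 and Dnajc6 were likewise highest in chow replicate 2. Hspa4 was highest in chow replicate 7 (thalamus sum 822 FPKM), but Dnajc27 in chow replicate 1. Lowest was Hsph1 in fructose replicate 2, Hspa4 and Dnajc6 in replicate 4 and Dnajb5 in replicate 1 (thalamus sum 374 FPKM). Dnaja4 and Dnajc27 were lowest in fructose replicate 5, which had the highest thalamus sum of that diet (482 FPKM). The sum of 7 midbrain dopamine neuron genes, all of which rose, was 29.0 to 59.5 FPKM on chow and 119 to 401 FPKM on fructose. The blood list, with 4 of 4 tested genes higher, summed to 238.1 to 615 and 494 to 2215 FPKM, and the meninges list, with 5 of 5 higher and Col1a2 listed at 0, to 18.6 to 30.7 and 26.8 to 73.3 FPKM. Of 5 astrocyte genes 2 rose, with sums of 617 to 746 and 758 to 926 FPKM, and of 7 immediate early genes 1, Fos, fell. On the lists of vascular smooth muscle, endothelium, choroid plexus, ependyma, oligodendrocytes and microglia, limma called 0 of 28 tested genes. At an unadjusted p under 0.05, 1 was lower and 7 higher, against 10.6% and 8.59% of all genes. All 5 tested genes had positive values on each of the lists of vascular smooth muscle, endothelium, ependyma and oligodendrocytes. On the microglia list 4 of 5 did, and on the choroid plexus list 1 of 3. The exact permutation test called 0 of the 28 after adjustment, as it did of all 11837 genes. The part of these shifts in the falls of the 7 members was not tested. The labelled tissue was looked at through 12 hypothalamic genes, all of which averaged above the limit of 0.5 FPKM. So did 11837 of the 17366 rows, so that passing this limit does not identify the tissue. Agrp (0.606 FPKM), Sim1 (1.21 FPKM) and Ghrh (2.11 FPKM) averaged lowest of the 12, and Pmch (4362 FPKM) and Hcrt (620 FPKM) highest. The sum of the 12 genes, mostly Pmch, was 4095 to 9522 FPKM on chow and 1591 to 6995 FPKM on fructose.

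Several cytosolic members were correlated with Hsph1 when the rats of both diets were pooled. How often other genes are correlated to this degree in these libraries was not examined. Values over the 13 rats pool the diets, so that a difference between diets, such as that of Hsph1, is part of them. Over the 13 rats Hsph1 was correlated with Hsp90aa1 (Pearson r = 0.807, adjusted permutation p = 0.005005, Spearman rho = 0.835, adjusted permutation p = 0.003905) and with its relative Hspa4l (r = 0.790, adjusted permutation p = 0.00631, rho = 0.775, adjusted permutation p = 0.0099). Dnajb1 (r = 0.659, rho = 0.654) and the joined row of Hspa1a and Hspa1b (r = 0.652, rho = 0.676) had an adjusted permutation p of 0.0286 each for r and 0.0285 each for rho. Hspa8 (r = 0.576, rho = 0.659) had an adjusted permutation p of 0.0565 for r and 0.0285 for rho, and Hspb1 (r = 0.511, rho = 0.489) 0.0866 and 0.113. These p-values are adjusted over the 11 pairs examined, and the resampling behind them did not keep the diets apart. Within the 7 chow rats r was 0.854 for Hsp90aa1, 0.889 for Hspa4l and 0.830 for Hspa8, with an adjusted exact p of 0.0240, 0.0240 and 0.0432. For Dnajb1, the joined row and Hspb1 it was 0.476, 0.320 and 0.643 there. Their adjusted exact p was 0.341, 0.480 and 0.176, so that these did not pass within chow. Within the 6 fructose rats r was 0.495 for Hsp90aa1, 0.284 for Hspa4l and -0.17 for Hspa8. It was 0.773 for Dnajb1, 0.714 for the joined row and 0.718 for Hspb1, and 0 of the 11 pairs passed. Without chow replicate 2 and fructose replicate 2, the rats farthest from the median of Hsph1, r was 0.904 for Hsp90aa1 (adjusted permutation p = 0.000880). It was 0.673 for Hspa4l, 0.581 for Dnajb1, 0.596 for the joined row and 0.620 for Hspa8, with an adjusted permutation p of 0.0855, 0.1002, 0.1002 and 0.0951, so that the calls of the first 3 were lost over these 11 rats. For Hspb1, which did not pass over all rats, r was 0.108.

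Members of the endoplasmic reticulum were followed through Hspa5. Over the 13 rats r was 0.810 with Hsp90b1 (rho = 0.731), 0.746 with Dnajb11 (rho = 0.835), a J protein that binds nascent chains with BiP, and 0.677 with Dnajc3 (rho = 0.604), a J protein that also restrains a kinase of the stress response. The adjusted permutation p was 0.005005, 0.0101 and 0.0257 for r and 0.0179, 0.003905 and 0.0425 for rho. With Dnajb9, a J protein induced by endoplasmic reticulum stress, r was 0.311 and rho 0.456, and with Hspa13, a small Hsp70 relative of microsomes, -0.25 and -0.31, and neither passed. Within the chow rats r was 0.886 for Hsp90b1, 0.770 for Dnajb11 and 0.912 for Dnajc3, with an adjusted exact p of 0.0278, 0.0971 and 0.0278. Within the fructose rats r was 0.734, 0.597 and -0.03. Without chow replicates 5 and 6, the rats farthest from the median of Hspa5, r was 0.652, 0.654 and 0.389, with an adjusted permutation p of 0.0855, 0.0855 and 0.327, so that the 3 calls were lost over the 11 other rats. The value for Dnajc3 moved the most of the 3. All these values share libraries and the scaling of each library, and those over 13 or 11 rats pool both diets.

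**Figure D5:**
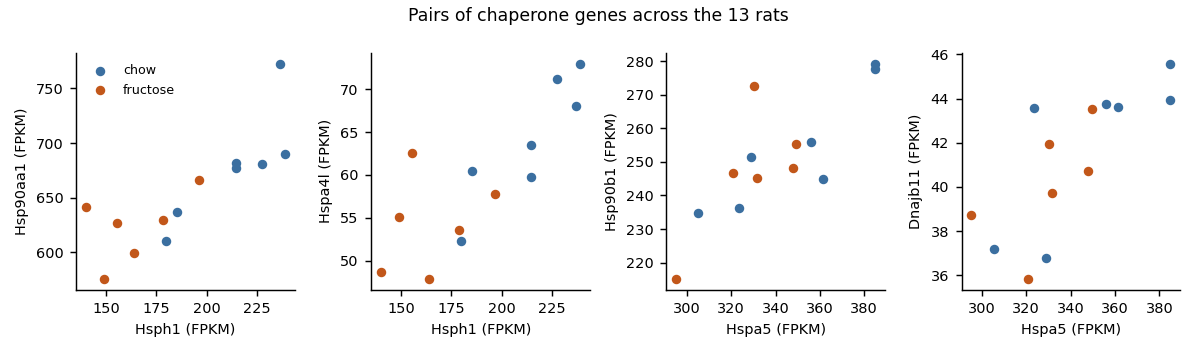
FPKM of Hsph1 against Hsp90aa1 and Hspa4l, and of Hspa5 against Hsp90b1 and Dnajb11, with 1 point per rat, chow in blue and fructose in orange. The points rise from left to right in each panel, with a Pearson r over the 13 rats of 0.807, 0.790, 0.810 and 0.746 on log2 values, and fructose rats are at the low end of Hsph1.

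Regulators and partners outside the symbol rule did not pass. Of 93 listed symbols 88 were in the table and 85 were tested, of which limma called 0, against 3.94% of all genes. At an unadjusted p under 0.05, 9 were lower and 0 higher, where 10.6% and 8.59% of all genes were. The exact permutation test called 0 of them, as it did of all 11837 genes tested, with 7 at an unadjusted p under 0.05. The median log2 fold change was -0.04, and 61 of 85 (71.8%) had a negative value, against 49.7% of all genes. Hsf1, which encodes the master regulator of the heat shock response, stood at 28.6 ± 1.53 FPKM on chow and 26.8 ± 2.71 FPKM on fructose (-0.10 ± 0.06, limma adjusted p = 0.443). Stip1, which links Hsp70 to Hsp90, stood at -0.07 ± 0.06 and Stub1, the ubiquitin ligase that acts on their clients, at -0.01 ± 0.04. None of the 13 subunits tested of the cytosolic chaperonin TRiC and of prefoldin passed, with 0 at an unadjusted p under 0.05 and values between -0.09 and 0.06. Among 26 genes of the unfolded protein response and of folding in the endoplasmic reticulum, 21 (80.8%) had negative values. Herpud1, which works in the removal of proteins from the endoplasmic reticulum, stood at 72.1 ± 4.29 and 64.0 ± 3.26 FPKM (-0.17 ± 0.05, limma adjusted p = 0.0625). Sgtb, a co-chaperone of Hsp70, had the value farthest from 0 of the partner genes, -0.35 ± 0.10 (limma adjusted p = 0.0731). Xbp1, a transcription factor of the unfolded protein response, stood at -0.04 ± 0.05 and Atf4, a factor of the integrated stress response, at -0.22 ± 0.09 (limma adjusted p = 0.195).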

How the data were processed

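RNA of whole hypothalamus from 7 chow and 6 fructose rats was analysed from 1 deposited table of FPKM values, 1 column per rat, none of whose columns was left unmatched. The submitters' processing notes name the genome build rn5 and the tools STAR (2.3.0e), Cufflinks (2.1.1) and Cuffdiff. The sources used here do not state their settings, the annotation or how libraries were scaled. Each library started from 1 µg of total RNA, per the labels' protocols. No counts are used here, so the depth behind each value is unknown. Total FPKM was 556902 to 608058 per rat.

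Values were taken as log2(FPKM + 0.5), which understates changes of low genes, and the 11837 rows with a mean of at least 0.5 FPKM were fitted together with limma 3.58.1 in R 4.3.3 with an intensity trend. Tests were two-sided, and p-values were adjusted by Benjamini-Hochberg across these rows. The procedure was tested on simulated data with noise drawn independently for each gene, so that shifts shared by many genes were not covered. Replicates were numbered in accession order. Members, classes and lists were chosen with earlier results of these data known, and the limit of 30 FPKM after the fit was seen. Of the 93 partner symbols 5 were unmatched and 3 fell under the limit. Named were all members that passed, the highest, the most variable and the smallest-p member of each class, the members of the 11 pairs, and genes just inside or outside the limit of 0.5 FPKM. Other members and partner genes named were chosen after their values were seen. Correlations used 100000 resamples over 13 rats and all orders within a diet. Promoters came from RefSeq, GRCr8. Unmatched were Dnaja2, Dnajb4, Dnajc2, Dnajc8, Dnajc11, Dnajc12, Dnajc15, Dnajc22, Dnajc24, Hspa12a, Hsp90aa1 and Hspb11. Alternatives were other pseudocounts, filters, scalings, limma settings and thresholds, the exact permutation test, summed rows and leaving out each rat.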

Additional observations from a re-analysis of the deposited data

Results flagged for a closer look

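Of 64 sets of rats examined, 32 named members in each diet, 2 held a rat far from the others, where chance alone gives about 5% of such sets. The joined row of Hspa1a and Hspa1b, the inducible Hsp70 genes, stood at 1.501 FPKM in fructose replicate 5, and the next rat of that diet at 0.627 FPKM. The same rat had the highest fructose values of Dnajb1 (63.2 FPKM), Hsph1 (196 FPKM) and Hspb1 (17.7 FPKM). Hspbap1 stood at 4.15 FPKM in fructose replicate 1, below the next rat at 6.40 FPKM.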

How the results depend on the processing

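The count of 7 members lower on fructose was 7 with pseudocounts of 0.1 or 1, a mean of at least 2 FPKM, robust empirical Bayes, summed rows or an adjusted p under 0.1. It was 6 with median-ratio scaling, 5 with no filter on low values and 8 with array weights. With quantile normalization it was 4, and 4 changed in all, Dnajc6, Dnajc27 and Hspa4 being lost. With the exact permutation test it was 0, as it was over all 11837 genes, and 0 members changed in all. With 1 rat left out the lower and the changed count each lay between 1 and 8. The count of members higher, 0, was 1 (Hspb8) with array weights and with an adjusted p under 0.1, and 0 to 1 with 1 rat left out. The count of partner genes changed, 0, was 3 with array weights (Sgtb, Eif2ak3 and Herpud1), 2 with an adjusted p under 0.1 (Sgtb and Herpud1) and 0 to 2 with 1 rat left out (Sgtb, Herpud1 or Tomm34). Of the 11 pairs 7 passed over all rats, 8 by Spearman rank, 5 within chow, 0 within fructose and 1 without the 2 farthest rats. The cause of these changes was not tested. Among values that did not pass, a sign turned for Hsp90ab1 (0.0032) and Hspe1 (0.016) with quantile normalization, and for Dnajc22 (0.074) and Dnajc7 (-0.00060) with array weights. With 1 rat left out, values on both sides of 0 were seen for Dnajb14 (-0.036 to 0.23), Hspb1 (-0.15 to 0.068), Hspe1 (-0.060 to 0.024), Dnajc22 (-0.086 to 0.15) and Dnajc7 (-0.015 to 0.030). Within fructose r turned for Hsph1 with Hspa8 (-0.17) and for Hspa5 with Dnajb9 (-0.027) and Dnajc3 (-0.026). No scaling moved the median of all genes by over 0.1. No paired analysis was possible because the labels give the diets no shared replicate numbers. FPKM without counts gives no limit of detection for low members such as Hspb9 and Dnajc22.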

Other observations

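Several members are known from particular cells or partners, and their values are given here beside those partners. Dnajc12, a J protein known to bind tyrosine and tryptophan hydroxylases, averaged 48.9 FPKM in chow rats (SD 3.05, n = 7) against 47.4 FPKM in fructose rats (SD 5.57, n = 6; -0.05 ± 0.07, limma adjusted p = 0.762), while Th, which encodes tyrosine hydroxylase, rose by 2.40 on the log2 scale in the same rats. Hspa12b, known from endothelium, stood at 6.33 ± 1.06 and 6.22 ± 0.542 FPKM, and Dnajb13, known from motile cilia and sperm, at 1.48 ± 0.434 and 1.81 ± 0.426 FPKM, and neither passed. Hspa14 and Dnajc2, which act together at the ribosome, stood at -0.07 ± 0.06 and 0.04 ± 0.07. J proteins of mitochondria had values on both sides of 0, Dnaja3 at -0.07 ± 0.06, Dnajc11 at -0.13 ± 0.06, Dnajc15 at 0.01 ± 0.08 and Dnajc30 at 0.19 ± 0.10, and none passed. Cryab, a small heat shock protein outside the symbol rule, was more abundant than all members of its class, at 333 ± 71.3 and 344 ± 67.1 FPKM, and did not pass (0.05 ± 0.14). The 6 fructose rats had a far narrower spread of Dnaja4 (SD 0.294 FPKM) than the 7 chow rats (SD 3.22 FPKM), a difference that was noticed after the values were seen and was not tested.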
